A study of Mus musculus with 4 samples.

Results

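The peaks described here are those called around the genes of Pax6 and Etv6, the transcription factors named in the titles of 2 FLAG ChIP-seq libraries of mouse neural progenitor-like cells. A peak was taken when its summit lay in a window of 450 kb on chromosome 2 (105.35 to 105.8 Mb in mm9), set to hold Pax6 and its enhancers toward Elp4, or in one of 400 kb on chromosome 6 (133.9 to 134.3 Mb), set to hold Etv6. The rule used positions only, and it found 58 peaks of the 125330 called on chromosomes 1 to 19 and X in 4 lists. The Pax6 window held 20 of them, 10 from the EGFP_OK list, 0 from the Pax6 list, 5 from the Etv6 list and 5 from the H3K4me2 list. The Etv6 window held 38, with 7, 6, 10 and 15 in the same order.

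The cells of all libraries were of strain 129/SvJ, had been derived from embryonic stem cells and grown with EGF and FGF-2, and were used between passages 15 and 18. The libraries titled NS-F-Pax6 and NS-F-Etv6 and the one titled N31, EGFP and OK, called EGFP_OK here, were made with a monoclonal anti-FLAG antibody, M2. The title of the library for histone H3 dimethylated at lysine 4 (H3K4me2) names N31, Oct4, EGFP and 0 hr. Which protein carried the tag in EGFP_OK, how the tagged factors were introduced and whether NS and N31 are the same cells are not given in the sources used here. Each of them is a single library without a matching control, so the values below carry counting error only and libraries were not tested against each other. After removal of duplicates the Pax6 library kept 5288154 of its 27560633 tags, with 81% redundant. The other libraries kept 21498324 to 24550365 tags, from totals of 29371583 to 35255051, with 16% to 39% redundant. Depth below means kept tags, not the number of tags sequenced.

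Pax6 is a paired-box and homeobox transcription factor that directs development of the eye and forebrain and is made by neural progenitors. Its transcription depends on distant enhancers, many of them inside introns of the neighbouring gene Elp4, which encodes a subunit of the Elongator complex, and Pax6 is known to act on its own gene. Etv6 is an ETS-family transcription factor that mostly represses transcription, is known best from blood formation, and recognises DNA through the core GGAA shared by its family. H3K4me2 marks active or poised promoters and enhancers. An experiment with a tagged factor can also carry DNA of the introduced cDNA, whose reads would map to the exons of the factor's own gene in that library alone.

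The RefSeq promoter table holds 2 start regions for Pax6 and 1 for Etv6, shown here because they are the reference sequence of the genes whose surroundings are described. They are in assembly GRCm38.p6, at chr2:105668646-105668895 and chr2:105682213-105682462 for Pax6 and at chr6:134035450-134035699 for Etv6, all on the plus strand. These positions are not comparable with the mm9 positions of the peaks, so no peak was placed on them. Each is the 250 bases before the start, with every GGAA or its reverse complement TTCC in capitals.
Pax6 start region 1: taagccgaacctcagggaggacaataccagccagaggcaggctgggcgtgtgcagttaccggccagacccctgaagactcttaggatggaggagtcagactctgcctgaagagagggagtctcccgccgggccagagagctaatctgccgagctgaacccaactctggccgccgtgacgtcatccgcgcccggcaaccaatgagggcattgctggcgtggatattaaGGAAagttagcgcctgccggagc
Pax6 start region 2: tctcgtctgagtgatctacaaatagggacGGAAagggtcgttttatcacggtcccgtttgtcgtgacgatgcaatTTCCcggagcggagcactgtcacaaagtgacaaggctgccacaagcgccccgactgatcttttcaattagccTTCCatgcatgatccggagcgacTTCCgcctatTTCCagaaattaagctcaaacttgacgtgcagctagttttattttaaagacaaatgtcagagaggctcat
Etv6 start region: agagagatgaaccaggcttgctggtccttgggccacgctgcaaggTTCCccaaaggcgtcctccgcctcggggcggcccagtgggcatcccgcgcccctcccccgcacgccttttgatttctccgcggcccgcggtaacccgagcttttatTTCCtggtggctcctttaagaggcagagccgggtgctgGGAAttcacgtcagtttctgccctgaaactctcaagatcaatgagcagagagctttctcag
The first Pax6 region held 1 such core, the second 5 and the Etv6 region 3, on either strand. Of 32536 distinct start regions of this length in the table, 93.4% held at least 1, 18.1% held at least 5 and 54.7% held at least 3. The longer ETS motif CCGGAAGT, which contains the core, was in none of these regions and in 2.90% of all. The motif TTCACGC, from the site of the paired domain, was also in none of them and in 1.04% of all, counting both strands.

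At its own locus the Pax6 factor had no called peak, while EGFP_OK had more peaks there than any other list. In the RefSeq gene table Pax6 lies between Rcn1, which encodes a calcium-binding protein of the endoplasmic reticulum, and Elp4, with Immp1l beyond it. That table gives gene order only, and no peak was placed relative to these genes. A window of 450 kb with no Pax6 summit was common, at 32.7% of the 5871 such windows laid end to end over the genome. It was less common where other FLAG peaks were called. Of windows with exactly 5 Etv6 summits, as here, 9.35% had no Pax6 summit, and of windows with at least 5 it was 2.58%. Of windows with at least 10 EGFP_OK summits it was 7.89%, and of the 657 windows with at least 10 EGFP_OK and at least 5 Etv6 summits it was 0.457%, or 3 windows. These limits were set at the counts seen in the Pax6 window, so the shares describe where it lies among windows and are not a test. The Pax6 window lies at the lower limit of each, so the other windows counted include richer ones. No share was counted for windows with exactly 10 EGFP_OK and 5 Etv6 summits.

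The stretch without a Pax6 peak reached beyond the window on both sides. The nearest Pax6 peaks were at chr2:105238854-105239486, with 10 tags, and chr2:105843185-105844107, with 15 tags. Their summits were 604 kb apart, and 4.82% of the 16584 distances between neighbouring Pax6 summits were as long, against a median of 52.2 kb. The files give tags in called peaks only, so signal under the calling limit in this stretch cannot be seen.

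**Figure D1:**
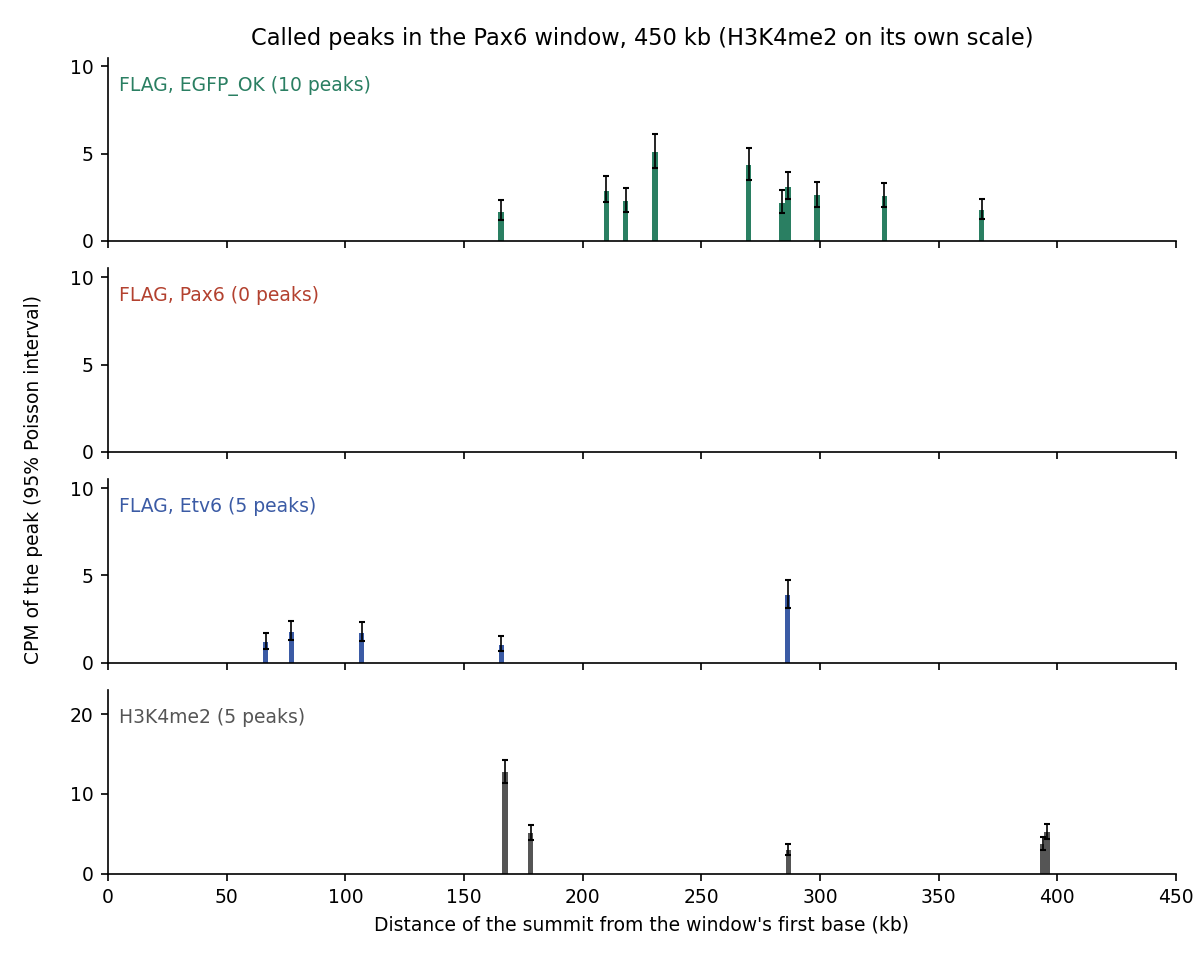
Peaks of the 4 lists in the Pax6 window, by the distance of the summit from the first base of the window in kb, with CPM as height and the 95% Poisson interval as error bar; bars have a fixed width that is not the width of the peak. EGFP_OK peaks lie between 166 and 368 kb, at 1.67 to 5.07 CPM, the Pax6 row is empty, and the H3K4me2 row has its own scale.

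EGFP_OK peaks formed a series between 166 and 368 kb from the first base of the Pax6 window. Of the 10 peaks, 9 lay after the H3K4me2 peak at chr2:105527941-105530042, their summits spread over 158 kb and between 2.52 and 41.0 kb apart, and 8 of these 9 were outside H3K4me2. A 450-kb window held at least 10 EGFP_OK summits in 14.9% of cases, and the median window held 4. The highest peak by score was chr2:105579863-105581182, with 109 tags (5.07 CPM, 95% interval 4.16 to 6.12), a score of 381.35 and a 13.4-fold enrichment, ranked 919 of 28338. CPM are the tags of a peak per 1000000 kept tags of its library, with an exact Poisson interval for counting error. Scores (−log10 of the p-value that MACS gave, multiplied by 10) and folds (height at the summit over the library's own local background) are the authors' values.

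The remaining EGFP_OK peaks were lower than that one. The next, chr2:105619041-105620390, held 93 tags (4.33 CPM, 3.49 to 5.30) at 9.77-fold. A peak at chr2:105559399-105560608 held 62 tags (2.88 CPM, 2.21 to 3.70) and had the largest fold of the window, 15.02, so the order by fold was not the order by score. Those at chr2:105676316-105677711 and chr2:105648068-105649311, which complete the highest 5 by score, held 55 and 56 tags at 7.43-fold and 8.49-fold. The other 5 held between 36 and 67 tags. No EGFP_OK peak of this window overlapped a Pax6 peak, 2 overlapped an Etv6 peak, 2 had their summit in H3K4me2, and 8 overlapped no peak of any other list. Over the whole list, 11.7% of EGFP_OK peaks overlapped a Pax6 peak, 20.9% an Etv6 peak, 26.9% had their summit in H3K4me2, and 64.3% overlapped no peak of another list. With 8 of 10, or 80.0% (95% Clopper-Pearson interval 44.4 to 97.5), the share in no other list held the whole-list value inside its interval. With so few peaks that interval is wide and is not a test.

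Etv6 peaks lay mostly in the part of the window before the first H3K4me2 peak. The first 3 of the 5, at chr2:105416016-105416904, chr2:105426755-105427538 and chr2:105456333-105457363, held 28, 43 and 41 tags at 6.89-fold, 10.3-fold and 4.97-fold. They overlapped no peak of any other list, and the nearest H3K4me2 peak was 57341 bp or more away. None of the 5 overlapped a Pax6 peak, against 38.9% of the whole Etv6 list. A 450-kb window held at least 5 Etv6 summits in 45.5% of cases.

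EGFP_OK, Etv6 and H3K4me2 met at 2 places of the Pax6 window, and no place was called in all 4 lists. The first was in the widest and highest H3K4me2 peak, chr2:105514705-105518446, with 314 tags over 3742 bp at 4.92-fold. It held the peaks with the fewest tags of both FLAG lists that had peaks in the window, chr2:105515163-105516217 of EGFP_OK with 36 tags (1.67 CPM, 1.17 to 2.32) and chr2:105515368-105515950 of Etv6 with 25 tags (1.04 CPM, 0.672 to 1.53). Their summits were 87 bp apart, and the H3K4me2 summit lay 1541 bp from the Etv6 summit. The FLAG peaks here were therefore near the left edge of the marked stretch, not at its summit.

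The second place lay among the EGFP_OK series and held the highest Etv6 peak of the window. Etv6 was called at chr2:105635636-105637010 with 93 tags (3.86 CPM, 3.12 to 4.73), EGFP_OK at chr2:105635857-105637147 with 67 tags (3.12 CPM, 2.42 to 3.96) and H3K4me2 at chr2:105635865-105637163 with 73 tags (2.97 CPM, 2.33 to 3.74). The summits were at 105636354, 105636517 and 105636597, so all 3 lay within 243 bp. The intervals of the EGFP_OK and Etv6 levels overlapped, but they cover counting error only, and the levels were not tested against each other. Among all Etv6 peaks with a tag count within 20% of this one, 56.9% overlapped a Pax6 peak, but here there was none. An additional EGFP_OK peak, chr2:105633371-105634582 with 47 tags, had its summit 2.52 kb before the summit of the EGFP_OK peak of this place and was outside H3K4me2.

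The remaining H3K4me2 peaks of the Pax6 window held no FLAG summit. They were chr2:105527941-105530042 with 125 tags, and a pair 170 bp apart at chr2:105743519-105744585 and chr2:105744756-105746210 with 92 and 128 tags. FLAG summits were thus in 2 of the 5 H3K4me2 peaks, against 40.3% of the whole H3K4me2 list. At least 5 H3K4me2 summits were found in 57.8% of 450-kb windows.

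At the Etv6 locus all 4 lists had peaks, and the highest FLAG peak by tags was the Etv6 factor's own. In the gene table Etv6 is followed by Bcl2l14, a relative of the apoptosis regulator Bcl2, and Lrp6, a Wnt co-receptor. Of 6605 windows of 400 kb, 18.2% held at least 10 Etv6 summits, 15.2% at least 6 Pax6 summits, 26.5% at least 7 EGFP_OK summits and 18.6% at least 15 H3K4me2 summits. Of the 1201 windows with at least 10 Etv6 summits, 60% had at least 6 Pax6 summits, so the Pax6 count here was a usual one for windows as rich in Etv6. Likewise 57.8% of the 1230 windows with at least 15 H3K4me2 summits had at least 10 Etv6 summits.

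The highest Etv6 peak was chr6:133984359-133986420, with 199 tags (8.27 CPM, 7.16 to 9.50), a score of 348.57 and a 7.38-fold enrichment, ranked 894 of 30931. It overlapped both H3K4me2 peaks of the pair chr6:133983659-133985835 and chr6:133985842-133990054, which were 6 bp apart and held 254 and 472 tags. No other FLAG list had a peak there. Of Etv6 peaks with a tag count within 20% of this one, 83.2% overlapped a Pax6 peak and 33.2% an EGFP_OK peak. Its 199 tags correspond to 43.7 at the depth of the Pax6 library, above the 10 tags of the weakest called Pax6 peak and the median of 19. That value is rescaled Etv6 signal, and why no Pax6 peak was called there was not tested.

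**Figure D2:**
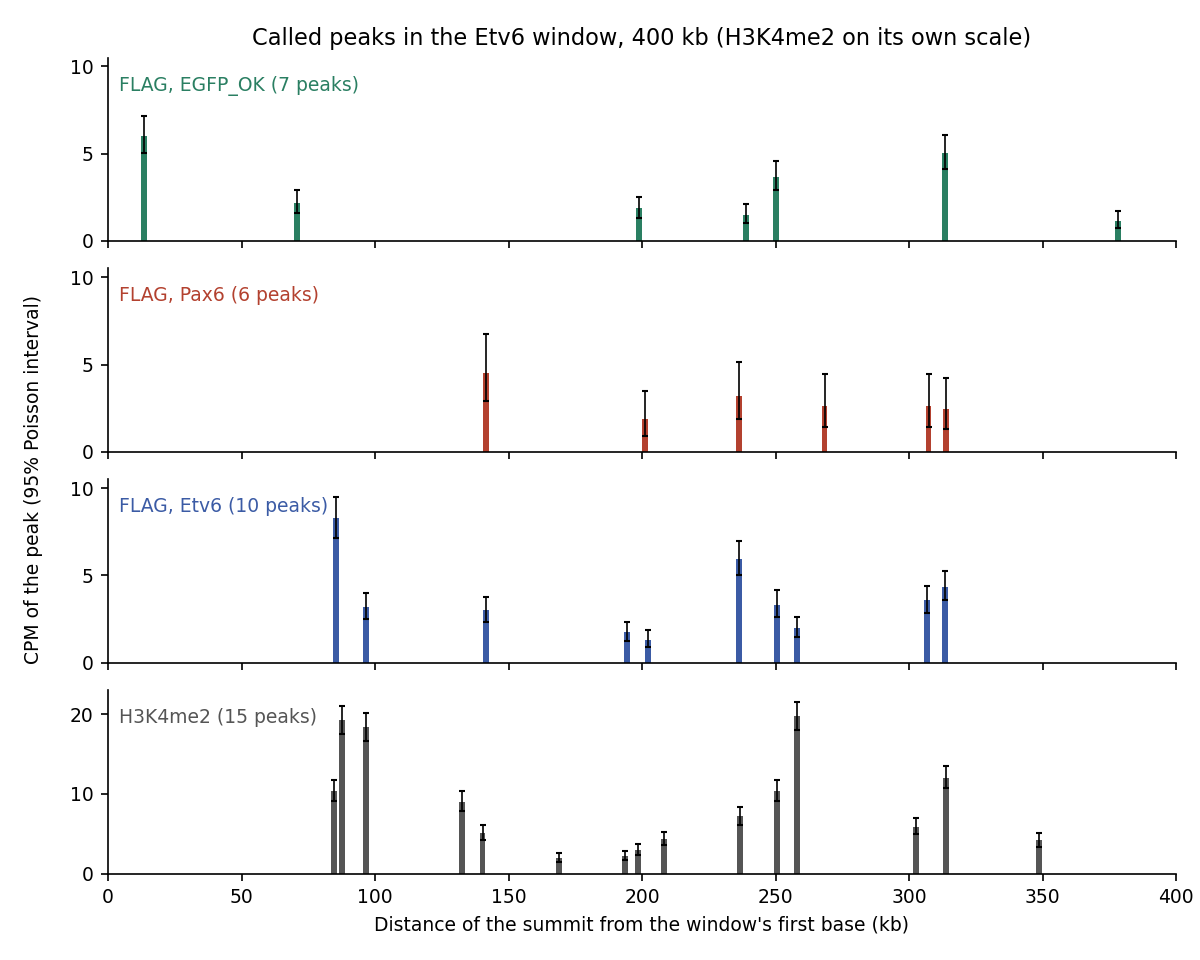
Peaks of the 4 lists in the Etv6 window, plotted as for the Pax6 window, with CPM (95% Poisson interval) against distance from the first base of the window in kb. The highest FLAG bar is the Etv6 peak of 8.27 CPM beside the H3K4me2 bars of 10.3 and 19.2; only 1 place, of 5.02 in EGFP_OK, 2.46 in Pax6 and 4.36 in Etv6, has bars in all 4 rows.

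Most of the other high Etv6 peaks were at H3K4me2 too. The next by score was chr6:134135552-134137322, with 143 tags (5.94 CPM, 5.01 to 7.00) at 9.89-fold, and the third was chr6:134212676-134214078, with 105 tags (4.36 CPM, 3.57 to 5.28) at 8.21-fold. Then came chr6:134149657-134151217 with 80 tags at 5.31-fold and chr6:134041015-134042291 with 72 tags at 5.71-fold, whose interval overlapped an H3K4me2 peak while its summit lay outside. The peak chr6:134206099-134208039, lower by score but with 86 tags at 5.11-fold, overlapped no H3K4me2 peak, the nearest being 3101 bp away. The summits of 7 of the 10 Etv6 peaks were inside H3K4me2, or 70.0% (34.8 to 93.3), against 51.9% of the whole list. At the Pax6 locus it was 2 of 5, or 40.0% (5.27 to 85.3). Both intervals hold the whole-list share, but with so few peaks they are wide and are not a test. An EGFP_OK peak overlapped 2 of the 10 Etv6 peaks, against 19.2% of the whole list, and a Pax6 peak 4, against 38.9%.

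Pax6 peaks at the Etv6 locus were weak calls. They held between 10 and 24 tags, with a median of 14 against 19 for the whole list. Their median score was 57.2, against 73.1 for the whole list. None reached a score of 100, but only 4202 of the 16604 peaks of the whole list did. The highest was chr6:134041183-134042336, with 24 tags (4.54 CPM, 2.91 to 6.75), a score of 85.59 and 9.70-fold, ranked 6014 of 16604. The next 4 by score held 13, 17, 14 and 10 tags, at chr6:134213224-134213987, chr6:134136183-134137127, chr6:134167927-134168827 and chr6:134100900-134101456. The last of the 6, chr6:134207019-134207879, held 14 tags at a score of 50.85, just past the score of 50 that the cutoff sets.

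Of the 6 Pax6 peaks, 4 overlapped an Etv6 peak, or 66.7% (22.3 to 95.7), against 72.6% of the whole list. An EGFP_OK peak overlapped 1 of them, against 20.1% of the whole list, their summits were in H3K4me2 at 2, against 43.7%, and 2 were in no other list, against 18% (23.9% when only FLAG lists count). At chr6:134041183-134042336 Pax6 held 24 tags against 72 in Etv6, a ratio of 0.333, with summits 41 bp apart. At chr6:134136183-134137127 it held 17 against 143, a ratio of 0.119, with summits 28 bp apart. At the remaining 2 places the Pax6 peaks held 14 and 13 tags against 86 and 105, ratios of 0.163 and 0.124, with summits 676 and 264 bp apart. Over 12080 overlapping pairs of the 2 lists the median ratio was 0.291, with quartiles of 0.216 and 0.390, and the libraries' kept tags stood at 0.220. The ratio was thus above the median at 1 place and below the lower quartile at 3.

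A single place was called in all 4 lists, inside the H3K4me2 peak chr6:134211415-134215077 of 295 tags. EGFP_OK held 108 tags there (5.02 CPM, 4.12 to 6.07) at 10.4-fold in the peak chr6:134212645-134214275, Etv6 105 tags at 8.21-fold and Pax6 13 tags (2.46 CPM, 1.31 to 4.20) at 12.1-fold. The EGFP_OK and Etv6 summits were 38 bp apart, at 134213508 and 134213470, and the Pax6 summit at 134213734 was 226 bp from the former. The H3K4me2 summit at 134214007 lay further to the right. Of the whole Pax6 list 12.7% of peaks overlapped all other lists, of the whole EGFP_OK list 7.36% and of the whole Etv6 list 6.87%.

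EGFP_OK had 7 peaks at the Etv6 locus, and 4 of them were in no other list. The highest, chr6:133912837-133914223, held 129 tags (6.0 CPM, 5.01 to 7.13) at 15.3-fold and ranked 878 of 28338. It overlapped no other peak, and the nearest H3K4me2 peak was 69435 bp away. The others of the highest 5 were the place of all lists, chr6:133970164-133971106 with 47 tags at 9.31-fold, chr6:134098238-134099278 with 40 tags at 9.29-fold, and chr6:134149103-134151425 with 79 tags at 4.19-fold. The last of these overlapped the Etv6 peak of 80 tags and the H3K4me2 peak chr6:134148761-134151688 of 254 tags, with EGFP_OK and Etv6 summits 444 bp apart. Of the 7 EGFP_OK peaks, 2 overlapped an Etv6 peak, against 20.9% of the whole list, and 3 had their summit in H3K4me2, against 26.9%. The 4 that overlapped no peak of another list compare with 64.3%, and 5 overlapped no peak of another FLAG list, against 77% of the whole list and 8 of 10 in the Pax6 window.

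Called H3K4me2 peaks covered more of the Etv6 window than of the Pax6 window. They covered 40.6 kb, or 10.1% of the Etv6 window, and 9.67 kb, or 2.15% of the Pax6 window. Among the 16604 highest-scoring H3K4me2 peaks each window held 3, so the difference in number lay in lower-scoring peaks. Peaks wider than 3 kb numbered 4 of 15 and 1 of 5, against 14.4% of the whole list. The widest, chr6:133992933-133998968, spanned 6036 bp with 450 tags at 3.24-fold, and only 1.04% of all H3K4me2 peaks were as wide. By score, however, this widest peak ranked only 41617 of 49457. It held an Etv6 peak, chr6:133995816-133997010, with 77 tags and a summit 248 bp from the H3K4me2 summit. The peak chr6:134154593-134160015 spanned 5423 bp with 484 tags and held an Etv6 peak of 48 tags, chr6:134157445-134158569, with summits 139 bp apart. The highest H3K4me2 peak by score was chr6:134031970-134034333, with 222 tags and a score of 331.38, and it held no FLAG summit. Nor did chr6:134201437-134202997, with 145 tags. In all, 8 of the 15 H3K4me2 peaks held a FLAG summit, 7 of them an Etv6 summit. These shares were 53.3% (26.6 to 78.7) and 46.7% (21.3 to 73.4), against 40.3% and 31.9% of the whole list. The whole-list share lies in both intervals, but they are wide and are not a test.

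Peaks that could be exons of a tagged cDNA were sought as peaks of a factor's own list, in its own window, that overlapped no peak of any other list. At the Pax6 locus there was none, since the Pax6 list had no peak there. At the Etv6 locus there was 1 of 10, chr6:134101797-134102511, against 25.2% of Etv6 peaks over the genome and 3 of 5 in the Pax6 window, where Etv6 cDNA could give no reads. It was 715 bp wide, with 32 tags (1.33 CPM, 0.909 to 1.88), a score of 55.13 and 5.89-fold. Of all Etv6 peaks, 4.10% were as narrow and 13.1% had as few tags, and its 44.8 tags per kb were close to the list's median of 46.8. The Pax6 peak of 10 tags, chr6:134100900-134101456, ended 340 bp before it, so no Etv6 peak of the window was more than 1 kb from every peak of the other lists.

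When the H3K4me2 list was set aside, 5 of the 10 Etv6 peaks were in no other FLAG list, against 50.9% of the whole list. They were the highest peak of 199 tags and those of 77, 42, 32 and 48 tags, the third of which was chr6:134093515-134094599. All but the one of 32 tags had their summit inside H3K4me2. An overlap with H3K4me2 does not tell whether a peak lies on an exon. Whether any of them lies on an exon was not tested, because no mm9 annotation was used here.

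**Figure D3:**
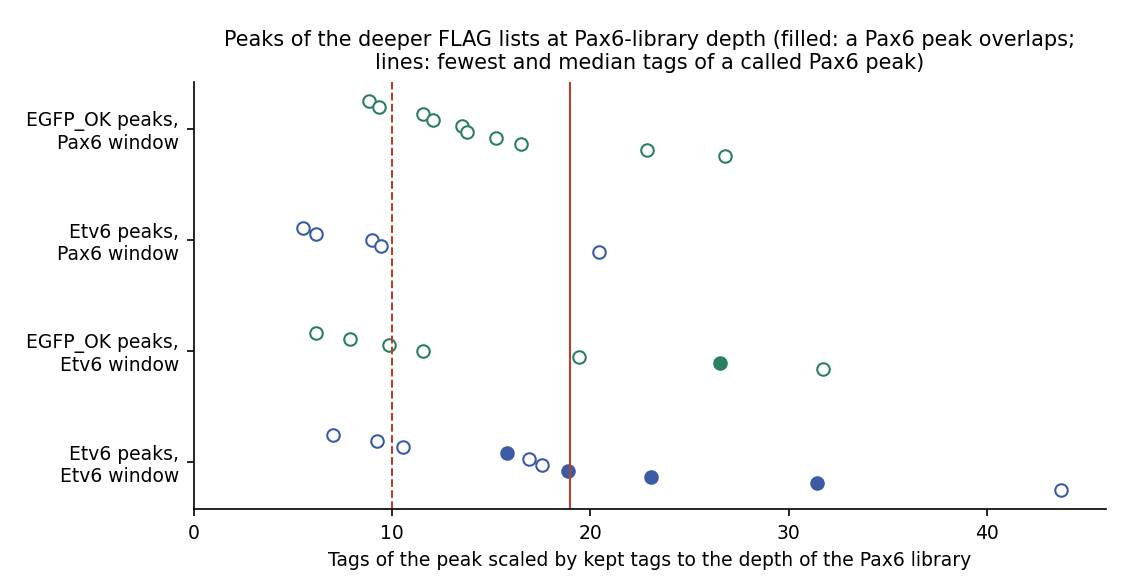
Tags of each EGFP_OK and Etv6 peak of both windows, multiplied by the ratio of kept tags to give the count at the depth of the Pax6 library; filled points overlap a Pax6 peak, and vertical lines mark the fewest (10, dashed) and the median (19) tags of a called Pax6 peak. All points of the Pax6 window are open, 9 of 15 at or above 10, while filled points in the Etv6 window lie among open ones.

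Depth limits what the missing Pax6 peaks show. The scaling assumes that Pax6 signal at a place equals that of the other FLAG library, which was not tested. The 10 tags used as a limit are the fewest of a called Pax6 peak, not a calling cutoff. Scaled by kept tags, the 5 Etv6 peaks of the Pax6 window would hold between 5.49 and 20.4 tags in the Pax6 library. Only the one of 93 tags would pass 10. The 10 EGFP_OK peaks would hold between 8.86 and 26.8, with 8 of them above 10. Over both lists by this scaling 9 of the 15 peaks would have at least the 10 tags of the weakest called Pax6 peak, and 3 at least the median of 19. The counts depend on the scaling. With the median tag ratio at peaks shared with the Pax6 list, 0.291 for Etv6 and 0.375 for EGFP_OK, 3 of the 5 Etv6 peaks and all 10 EGFP_OK peaks would pass 10; that ratio comes only from peaks called in both lists. Among Etv6 peaks of like tag count, the share with a Pax6 peak was 56.9% for the peak of 93 tags and 12.0%, 13.5%, 23.5% and 25.1% for the remaining ones. Among EGFP_OK peaks of like tag count, that share was between 8.71% and 15.5% for the 10 peaks. Most EGFP_OK peaks of such tag counts thus had no Pax6 peak anywhere in the genome. Binding by tagged Pax6 at its own locus was not called at this depth, which does not show that it was absent.

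**Figure D4:**
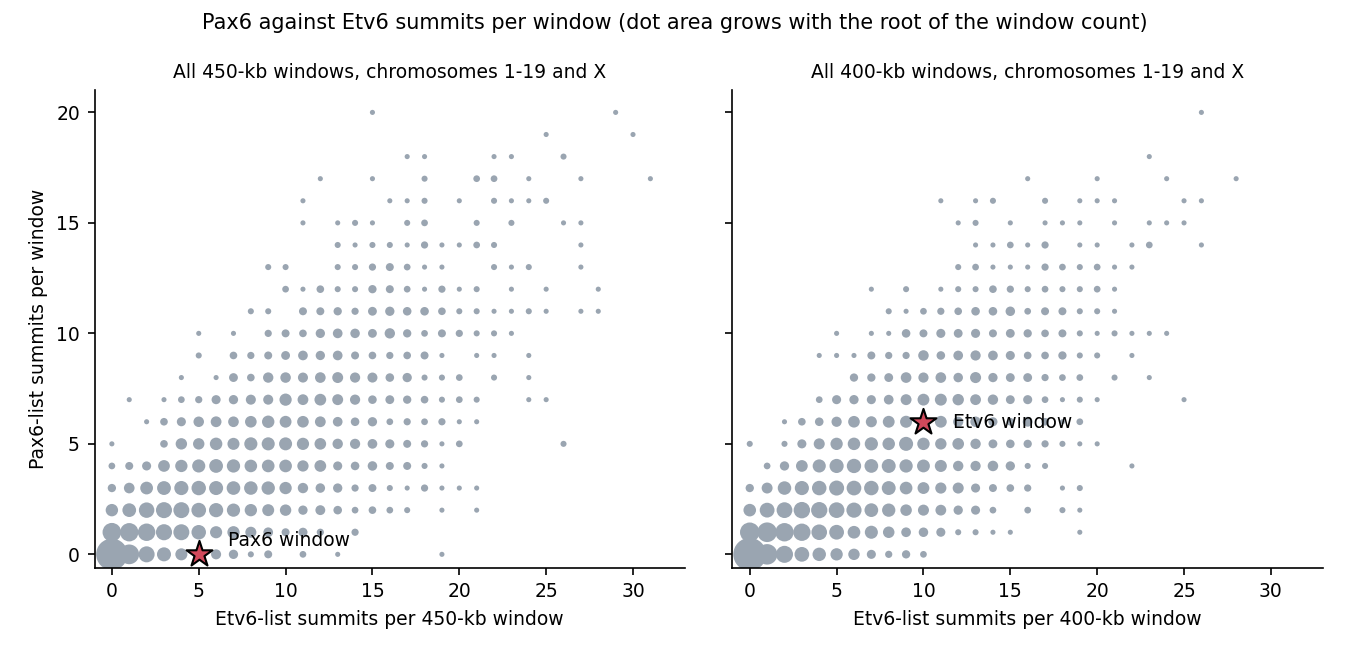
Pax6 summits against Etv6 summits in every 450-kb window (left) and 400-kb window (right) of chromosomes 1 to 19 and X, with dots whose area grows with the square root of the number of windows and a star for the window of each gene. The Pax6 window, at 5 Etv6 and 0 Pax6 summits, lies on the lower edge, and the Etv6 window, at 10 and 6, lies within the bulk.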

How the data were processed

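ChIP-seq peak lists of 4 libraries were used, 1 per group, grouped by their titles. Per the file headers, the lists were made by MACS 1.4.2 from each library alone, with no control, at a p cutoff of 1e-05, against a local background of 10 kb, and with repeated tags at a position reduced to 1. CASAVA 1.8.1, BWA 0.6.2 and mm9 are also named in the submitters' processing notes. Without a control, local copy number and accessibility remain in the lists. The authors deposited for each peak the count of its tags, not normalized. The score in the deposited files is the −log10 of the p-value multiplied by 10, and their fold enrichment is a ratio to the library's own local background. Scores and folds were used only within a list.

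Kept tags from the headers gave CPM. Intervals are 95% exact Poisson or Clopper-Pearson intervals and cover counting error only. The Clopper-Pearson intervals take the peaks of a window as independent, which neighbouring peaks need not be. Peaks overlapping by at least 1 bp counted as shared, and a FLAG peak was in H3K4me2 when its summit was inside an H3K4me2 peak. Genome-wide shares were counted over whole lists or over windows of equal size laid end to end. The tools were pandas 2.3.3, numpy 2.4.6 and scipy 1.17.1 under Python 3.11.15, and overlaps were tested on simulated lists. Chromosomes other than 1 to 19 and X were not used.

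The windows and rules were chosen with earlier results of these data known. Named with values were the 5 highest-scoring peaks of each list per window, places in all FLAG lists, the candidate cDNA peaks, and the widest and highest H3K4me2 peaks. Other named peaks were chosen after their values were seen. Alternatives were a score of at least 100, equal list lengths, other overlap rules and ranking by fold. Gene order and start regions came from RefSeq tables of GRCm38.p6, and no position was carried between builds.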

Additional observations from a re-analysis of the deposited data

How the results depend on the processing

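The Pax6 window held 0 Pax6 peaks under each alternative run, but none of these could have changed that count. A score limit only removes peaks, and equal list lengths left the 16604 Pax6 peaks as they were. The nearest Pax6 summits were 111 and 43.5 kb outside the window, too far for any overlap. When any overlap with the window sufficed, all 8 counts of peaks per window were equal to the main counts or within 1.5 times of them. With a score of at least 100 in every list, the Pax6 window held 2 Etv6 peaks, and the Etv6 window held 4 EGFP_OK, 0 Pax6 and 5 Etv6 peaks. Shared peaks then fell to 1 of EGFP_OK with Etv6 and 1 with H3K4me2 in each window, to 1 of Etv6 with H3K4me2 in the Pax6 window and 4 in the Etv6 window, and to 0 for each pairing with Pax6, while the candidate cDNA peaks fell to 0.

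With the 16604 highest-scoring peaks of each list, the Pax6 window held 3 Etv6 and 3 H3K4me2 peaks and the Etv6 window 3 H3K4me2 peaks. Sharing in the Pax6 window was then 1 for EGFP_OK with Etv6 and 0 for EGFP_OK and Etv6 with H3K4me2. In the Etv6 window it was 2 for Etv6 and 1 for Pax6 with H3K4me2, with 2 candidate cDNA peaks. With summits within 250 bp, sharing with H3K4me2 was 1 for EGFP_OK and 1 for Etv6 in the Pax6 window, and 1 for EGFP_OK, 3 for Etv6 and 0 for Pax6 in the Etv6 window. By that rule EGFP_OK shared 1 peak with Etv6 there, and Pax6 and Etv6 shared 2. The candidate cDNA peaks numbered 5 with H3K4me2 not considered and 0 when a peak within 1 kb also counted. Shorter lists can only lower the counts of peaks and of shared peaks, but they can raise the count of candidate cDNA peaks. The lower counts under the summit rule and the 1-kb rule came from the rule, with the lists at full length. Other causes were not tested. Requiring 50% of the shorter peak moved none of the 10 sharing counts beyond 1.5 times. Ranked by fold in place of score, the best rank within a list changed in all 7 pairs of list and window with a peak. The peak that held the best rank was nevertheless the same for EGFP_OK in the Etv6 window. The share of 450-kb windows without a Pax6 summit was 22.6% when windows with no summit of any list were left out, an alternative chosen after seeing the data. Scaled by the tag ratio at shared peaks, also chosen after seeing the data, the Etv6 peaks of the Pax6 window with at least 10 tags at the depth of the Pax6 library numbered 3 in place of 1, and the EGFP_OK peaks 10 in place of 8.

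No paired analysis was possible because each group has 1 library.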

Other observations

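The surroundings of the 2 windows were unequal, and were looked at after the windows' own values were seen. In the 500 kb before the Etv6 window there were 0 Etv6 and 0 H3K4me2 peaks, 1 Pax6 peak and 2 EGFP_OK peaks, and the nearest Etv6 and H3K4me2 summits on that side were 845 and 844 kb away. In the 500 kb after it there were 13 Etv6, 35 H3K4me2, 9 Pax6 and 22 EGFP_OK peaks. The highest Etv6 peak of the window was therefore the first Etv6 peak after a long stretch without one. Around the Pax6 window the flanks of 500 kb held 3 and 2 Etv6 peaks, 3 and 2 H3K4me2 peaks, 2 and 1 Pax6 peaks, and 2 and 2 EGFP_OK peaks, so the 10 EGFP_OK peaks of the window stood between sparser stretches.

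At the nearest Pax6 peaks on either side of the Pax6 window Etv6 and H3K4me2 were called as well. Before it, the Pax6 peak of 10 tags lay beside an Etv6 peak of 29 tags, chr2:105239549-105240234, and within the H3K4me2 peak chr2:105236368-105240853 of 398 tags. After it, the Pax6 peak of 15 tags overlapped an Etv6 peak of 46 tags, chr2:105842855-105843882, and the H3K4me2 peak chr2:105842173-105843436 of 95 tags.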
